A study of Mus musculus with 6 samples.

Results

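Serpins and alpha-2-macroglobulins are the broad protease inhibitors of plasma, tissue and cell interior. They were taken from the gene table as protein-coding rows whose symbol begins with Serpin, a clade letter from a to i and a digit, together with A2m and Pzp. This gave 62 genes of 43346 rows (22032 of them protein-coding). Membership used the symbol and the biotype. The family itself was selected on measured values, with the fold changes between radiated and non-radiated femurs already known and A2m and Serpina1a among its largest falls. Their values, and all counts over the family, are therefore given as a description of these genes and support nothing further.

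The libraries are bulk RNA-seq of femurs from C57BL/6 mice aged 4 months. The right femur received focal X-rays, 24 Gy at 6.6 Gy per minute over 5 mm of the distal metaphysis, and the left femur of the mouse received none. On day 21 the same 5 mm of bone below the growth plate was cut from each leg, cleared of muscle and homogenized with its marrow, which gave 3 radiated and 3 non-radiated libraries. Both groups share strain, age and day. The contralateral leg belongs to a radiated animal, so it is not a femur of an untreated mouse. Bone loss was seen at day 28, and the comparison addresses transcripts that differed before it.

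A serpin inhibits a serine or cysteine protease by offering a mobile loop as bait. The protease cuts the loop, the serpin snaps into another fold, and the protease is crushed in a covalent complex. Clade A serpins are mostly secreted and clade B serpins mostly stay inside the cell, while clades C to I include the plasma inhibitors of clotting, fibrinolysis and complement and a few members that inhibit no protease. Alpha-2-macroglobulins work differently: they trap a protease of almost any class in a cage, and the complex is cleared through the receptor Lrp1. In marrow these inhibitors face the elastase, cathepsin G and proteinase 3 of neutrophil granules.

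Libraries held 34034251 to 48708383 gene counts. Non-radiated library 2 stood apart, because the row AY036118 held 32.9% of its counts, against 0.321% to 5.61% in the other libraries. Values were scaled by the trimmed mean of M-values (TMM) and are given as CPM, the counts scaled to a common library size. Levels of different genes are compared only as CPM per kb of gene length. The bone and marrow lineages named by the tissue were present: 12 of 12 osteoblast markers and 15 of 15 neutrophil lineage markers passed the filter on low counts. Skeletal muscle markers differed between radiated libraries, with a summed level of 804, 2656 and 214 CPM in radiated libraries 1, 2 and 3, against 183 to 369 CPM in the non-radiated libraries. None of the 14 muscle markers was called by edgeR (all 14 had an unadjusted p under 0.05), and 11 were called higher with the replicate number as a block.

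The promoters of 4 members that fell are shown first, because 2 of them (Serpina1a and Serpina1d) are near copies of each other and the other 2 (Serpinb2 and Serpina3b) kept their calls in every fit. Each run covers 250 bases before and 50 bases after the annotated start, from RefSeq on GRCm38.p6, read 5′ to 3′ on the gene's strand. The Serpinb2 promoter lies at chr1:107511173-107511472 (plus strand, the first of 2 listed starts) and that of Serpina3b at chr12:104127746-104128045 (plus strand). Capitals in these mark TATAAA, the letters of a TATA box, which begin 29 and 28 bases before the start.
Serpinb2: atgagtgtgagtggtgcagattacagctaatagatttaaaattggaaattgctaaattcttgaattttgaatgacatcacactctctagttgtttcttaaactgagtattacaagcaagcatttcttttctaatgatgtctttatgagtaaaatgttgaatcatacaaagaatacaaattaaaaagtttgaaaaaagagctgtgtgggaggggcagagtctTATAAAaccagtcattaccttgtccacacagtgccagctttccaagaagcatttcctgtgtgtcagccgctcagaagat
Serpina3b: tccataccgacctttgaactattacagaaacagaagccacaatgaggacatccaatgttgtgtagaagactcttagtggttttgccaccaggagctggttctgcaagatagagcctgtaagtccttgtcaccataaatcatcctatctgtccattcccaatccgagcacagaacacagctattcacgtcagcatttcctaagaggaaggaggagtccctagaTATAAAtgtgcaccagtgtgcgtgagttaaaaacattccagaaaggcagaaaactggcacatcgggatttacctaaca

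The Serpina1a promoter lies at chr12:103863570-103863869 and that of Serpina1d at chr12:103773584-103773883, both on the minus strand. Capitals mark the bases that differ, or have no partner, in a global alignment of the pair.
Serpina1a: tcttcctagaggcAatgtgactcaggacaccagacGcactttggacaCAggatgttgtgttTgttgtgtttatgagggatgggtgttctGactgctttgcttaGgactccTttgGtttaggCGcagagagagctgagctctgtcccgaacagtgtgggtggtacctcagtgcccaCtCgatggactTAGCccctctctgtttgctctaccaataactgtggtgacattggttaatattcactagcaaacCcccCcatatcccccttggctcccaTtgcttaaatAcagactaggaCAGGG
Serpina1d: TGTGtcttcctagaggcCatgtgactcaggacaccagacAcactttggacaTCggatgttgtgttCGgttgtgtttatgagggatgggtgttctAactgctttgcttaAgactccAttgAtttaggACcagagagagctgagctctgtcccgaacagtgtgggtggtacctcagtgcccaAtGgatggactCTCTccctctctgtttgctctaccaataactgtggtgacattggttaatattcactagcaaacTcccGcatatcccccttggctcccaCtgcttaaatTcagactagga
The pair was identical over 89.8% of 305 aligned columns, with 21 substitutions and 10 gap columns.

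Promoters were found for 52 of the 62 members. A search on both strands found TATAAA in 18 of the 61 promoters of these members, against 13.6% of all 32851 promoters in the table. GTTAAT, an arm of the palindrome bound by the liver factor HNF1, was in 13 of the 61, among them promoters of Serpina1a to Serpina1e, against 7.1% of all promoters. The motif AGATAA, bound by erythroid and megakaryocyte factors of the Gata family, was in 11 of the 61, against 11.2% of all promoters. The Stat factor motif TTCNNNGAA was also in 11, against 8.3%. These are matches of letters, and nothing about binding was measured.

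Much of the family was low or undetected in this tissue. Of the 62 members 16 had no count in any library, and 34, these included, had at most 10 counts in every library. The genes without a count were mainly in clade B, where 13 of 26 members, among them Serpinb3a, Serpinb13 and Serpinb11, had no count at all. With 3 counts as the floor, 0 counts allow a level of up to 0.0562 to 0.12 CPM, depending on the library. The filter on low counts left 27 of the 62 members for the test, beside 18757 of the 43346 rows of the whole table, which also holds rows that are not protein-coding. Low detection is therefore not given as a trait particular to the family.

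Serpinb1a, Serpinh1, Serpine2, Serpinf1 and Serping1 together made up 71.3% to 74.4% of the summed length-scaled level of the family in each library. Serpinb1a, an inhibitor of neutrophil granule proteases kept inside the cell, was the highest, at 61.9 ± 7.6 CPM per kb in non-radiated and 47 ± 4.07 CPM per kb in radiated femurs (mean ± SD, n = 3 each). Serpinh1, the collagen chaperone of the endoplasmic reticulum also called HSP47, followed at 36.2 ± 7.2 and 35.1 ± 6.84 CPM per kb. Serpine2, or protease nexin, which inhibits thrombin and plasminogen activators at cell surfaces, was at 30.0 ± 2.34 and 31.0 ± 1.43 CPM per kb. Serpinf1, or PEDF, an anti-angiogenic matrix protein needed for bone mineralization, was at 28.3 ± 6.38 and 22.3 ± 4.33 CPM per kb. Serping1, the C1 inhibitor of complement, was at 18.0 ± 1.56 and 20.6 ± 4.55 CPM per kb. In non-radiated femurs Serpinh1, Serpine2 and Serpinf1 overlapped in level, and Serping1 lay below all of them. In radiated femurs Serpinh1 and Serpine2 overlapped, Serpinf1 lay below both in every library, and Serpinf1 and Serping1 overlapped.

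**Figure D1:**
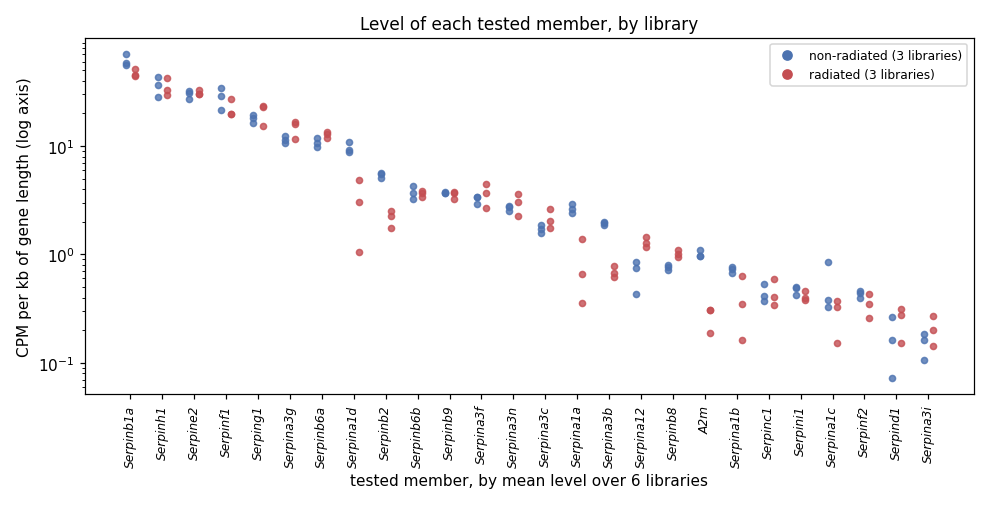
Level of the tested members described here in the 6 libraries, in CPM per kb of gene length on a log axis, ordered by the mean over all libraries; each point is 1 library, blue for non-radiated and red for radiated. Serpinb1a stood highest, and the red points lie below the blue ones for, among others, Serpina1d, Serpinb2, Serpina1a, Serpina3b and A2m.

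Between the groups, 8 of the 27 tested members were called by edgeR's quasi-likelihood test at a Benjamini-Hochberg adjusted p under 0.05 over all 18757 genes tested, where 7.8% of all genes were called. A2m, Serpina1a, Serpina1d, Serpina3b, Serpinb2 and Serpinb1a fell (6 members, against 3.24% of all genes called lower), and 2 members rose, among them Serpina12 (against 4.56% of all genes called higher). Of the 27 members 10 (the 8 called, Serpina1b and Serpinb8) had groups that did not overlap, where the share over all genes was 25.9%. The median log2 fold change of the 27 was -0.04, and that of all genes tested was 0.00. A gene that passed the filter only through the group where it was high had to differ, so these counts describe the tested members and not the family.

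**Figure D2:**
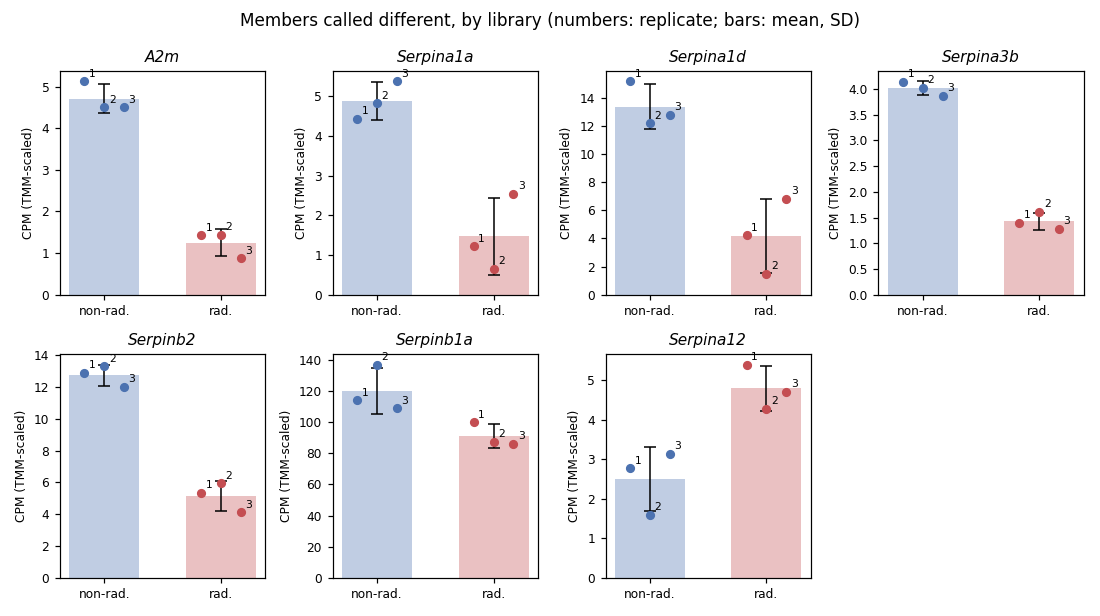
TMM-scaled CPM of the called members described here, in each library; points are libraries numbered by replicate, bars the group means and error bars the SD (n = 3 each). The groups did not overlap for any of them, and the radiated libraries were most scattered for Serpina1a and Serpina1d.

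Among the macroglobulins, A2m fell and Pzp was not measurable. A2m (ENSMUSG00000030111, chromosome 6, 121636173 to 121679237, GRCm38) encodes an alpha-2-macroglobulin. It had 187, 113 and 191 counts in non-radiated libraries 1 to 3 and 54, 77 and 39 counts in radiated libraries 1 to 3. Every radiated library was below every non-radiated library. The log2 fold change was -1.92 (SE 0.20), a 3.77-fold lower level in radiated femur. Within the numbers shared by both groups the log2 ratio was -1.85, -1.65 and -2.37, and A2m was called in 14 of 14 alternative fits. These fits reuse the same libraries, and the fall of A2m was known when the family was selected. They describe the processing and add no support.

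Pzp, named pregnancy zone protein and also an alpha-2-macroglobulin, had 4, 0 and 0 counts in the non-radiated libraries and 1 count in each radiated library. Mug1, a murinoglobulin of the same family, had 3, 3 and 9 counts in the non-radiated and 0, 3 and 2 in the radiated libraries, under the filter. Of 6 other family genes in the table (Mug1, Mug2, Cd109, C3, C4b and Hc) 4 were tested and none was called by edgeR, with 1 at an unadjusted p under 0.05. DESeq2's Wald test also called none, while C4b, complement factor 4, was called with library totals as the scaling, with no filter, and without radiated replicate 3. Cd109, a membrane-anchored member, was at 63.7 ± 12.4 CPM in non-radiated and 66.4 ± 7.51 CPM in radiated femurs (log2 fold change 0.05, SE 0.14, edgeR adjusted p 0.867). Lrp1, the receptor that clears A2m and serpin complexes, rose from 439 ± 37.9 to 646 ± 73.4 CPM (log2 fold change 0.56, SE 0.10, edgeR adjusted p 0.00844). It was the 1 gene called by edgeR among 6 tested clearance receptors, and DESeq2's Wald test called 2.

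The 5 paralogs Serpina1a to Serpina1e encode mouse alpha-1-antitrypsin, the main plasma inhibitor of neutrophil elastase. Serpina1d was the most abundant of them, at 15.2, 12.2 and 12.8 CPM in non-radiated libraries 1 to 3 and 4.23, 1.48 and 6.81 CPM in radiated libraries 1 to 3. The groups did not overlap, and radiated library 2 was lowest and radiated library 3 highest among the radiated. The fitted log2 difference was -1.69 (SE 0.41, edgeR adjusted p 0.0378). Serpina1a moved in parallel, at 4.44, 4.83 and 5.38 CPM against 1.22, 0.655 and 2.55 CPM, with the same order of the radiated libraries and a log2 fold change of -1.74 (SE 0.39).

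Serpina1b and Serpina1c had log2 fold changes of -0.94 (SE 0.39, edgeR adjusted p 0.203) and -0.91 (SE 0.46, edgeR adjusted p 0.295), and Serpina1e had at most 5 counts in any library. Serpina1b did not overlap between groups, and without radiated replicate 3 it was called (log2 fold change -1.54, edgeR adjusted p 0.0239). These genes share sequence: of the stretches of 50 bases in Serpina1a transcripts, 57.6% also occur in another gene, mostly Serpina1c, and the share was 50.9% for Serpina1d and 79.3% for Serpina1c. How such reads were assigned is not given in the sources used here, so the split between paralogs is uncertain.

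The sum over Serpina1a to Serpina1e does not depend on a split within the group. It was 825, 483 and 867 counts in non-radiated libraries 1 to 3 and 258, 146 and 511 counts in radiated libraries 1 to 3, or 20.8 ± 1.7 against 7.0 ± 4.36 CPM. As 1 row of the table it had a fitted log2 difference of -1.58 (SE 0.39, edgeR adjusted p 0.0386). Serpina1d made up 62.4% to 67.2% of the summed counts in non-radiated and 54.1% to 62.0% in radiated libraries. These are shares of counts, not scaled by gene length.

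When each library was left out, the log2 fold change ran from -1.36 to -2.41 for Serpina1a and from -1.27 to -2.26 for Serpina1d, smallest without radiated replicate 2 and largest without radiated replicate 3. The calls of Serpina1a and Serpina1d were lost without non-radiated replicate 1, 2 or 3 (edgeR adjusted p 0.0682, 0.0728 and 0.0714 for Serpina1a, and 0.117, 0.0841 and 0.0758 for Serpina1d) and without radiated replicate 1 (0.1 and 0.114). The radiated library with the most muscle signal, number 2 at 2656 CPM, had the lowest Serpina1 sum, and the radiated library with the least, number 3 at 214 CPM, had the highest. Radiated library 3 had a muscle signal within the non-radiated range and Serpina1d at 6.81 CPM, below every non-radiated library. In non-radiated libraries 1 to 3 the muscle signal was 212, 369 and 183 CPM and the Serpina1 sum 22.6, 19.3 and 20.5 CPM. In that group number 2 had the most muscle signal and the lowest sum, but number 3, with the least muscle signal, did not have the highest sum. Number 2 is also the library in which AY036118 held 32.9% of the counts. The part of muscle in the result was not tested. Liver is the main source of plasma alpha-1-antitrypsin. Of 15 hepatocyte markers Ttr, Fgb and Cyp3a11 had no count, Alb had 2 counts in non-radiated library 1 and 0 in the other libraries, and all markers except the transferrin gene Trf together held 0.20 to 0.933 CPM in non-radiated and 0.56 to 1.35 CPM in radiated libraries. Of these Cyp2e1 was tested; its counts were 18, 0 and 4 in non-radiated libraries 1 to 3, against 17, 56 and 11 in the radiated ones. Trf was at 190 ± 11.3 and 303 ± 36.4 CPM. The part of liver transcripts in the result was not tested.

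The next group on chromosome 12 is the Serpina3 cluster, the mouse expansion of the alpha-1-antichymotrypsin gene, of which 6 of 10 members were tested. Serpina3b (ENSMUSG00000066364, chromosome 12, 104127996 to 104139545) had 151, 101 and 164 counts in non-radiated libraries 1 to 3 and 53, 86 and 57 counts in radiated libraries 1 to 3. At 4.14, 4.03 and 3.87 CPM against 1.40, 1.61 and 1.28 CPM, both groups were tight and far apart. The fitted log2 difference was -1.48 (SE 0.15, edgeR adjusted p 0.000573), it was called in 14 of 14 alternative fits, and 2.92% of its stretches of 50 bases occur in another gene.

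The other 5 tested Serpina3 genes had positive log2 fold changes, from 0.15 to 0.45, and were not called. Serpina3g, also called Spi2A, an inhibitor of cathepsins in the cytosol of leukocytes, was the most abundant of them at 25.9, 22.5 and 23.8 CPM in non-radiated and 34.9, 33.9 and 24.3 CPM in radiated libraries 1 to 3. Radiated library 3 lay within the non-radiated range (log2 fold change 0.36, SE 0.13, edgeR adjusted p 0.137). Serpina3g was called without radiated replicate 3 (edgeR adjusted p 0.00793), where 7.11% of all genes were called, and in 3 of 14 alternative fits, with adjusted p from 0.00793 to 0.395. Serpina3f and Serpina3n, the latter an acute-phase inhibitor of granzyme B, had log2 fold changes of 0.18 (SE 0.18) and 0.15 (SE 0.17), with edgeR adjusted p of 0.637 and 0.683, and each was at -0.01 without radiated replicate 2.

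Serpina12, or vaspin, an insulin-sensitizing adipokine that inhibits kallikrein, lies between the 2 paralog groups (ENSMUSG00000041567, chromosome 12, 104028769 to 104044443) and rose. It was at 2.77, 1.60 and 3.14 CPM in non-radiated and 5.39, 4.27 and 4.71 CPM in radiated libraries 1 to 3, with no overlap and the lowest value in non-radiated library 2. The fitted log2 difference was 0.91 (SE 0.22, edgeR adjusted p 0.0401). The rise was no longer called without non-radiated replicate 1 or 2 (edgeR adjusted p 0.0913 and 0.0661) and without radiated replicate 1 or 3 (0.132 and 0.0696). Adipocyte markers rose beside it, with 9 of 12 called higher and a summed level of 439 to 510 CPM in non-radiated and 685 to 888 CPM in radiated libraries; their part in the result was not tested. In bulk samples fewer or more cells of a type cannot be told apart from less or more RNA per cell.

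**Figure D3:**
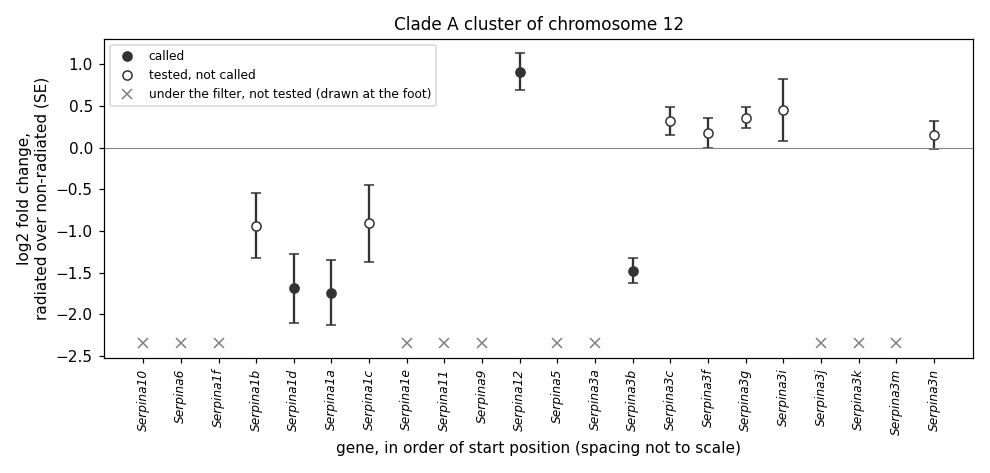
Log2 fold change (radiated over non-radiated) with its SE for the clade A genes of chromosome 12, in order of start position and not to scale; filled points are called, open points tested and not called, crosses under the filter. Within the cluster Serpina1d, Serpina1a and Serpina3b lay at -1.69, -1.74 and -1.48, Serpina12 between them at 0.91, and the other tested Serpina3 genes between 0.15 and 0.45.

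Of 26 clade B serpins, which guard cells against their own proteases, 6 were tested. Serpinb2, or PAI-2, an inhibitor of urokinase induced in activated macrophages (ENSMUSG00000062345, chromosome 1, 107511423 to 107535478), had 470, 333 and 508 counts in non-radiated libraries 1 to 3 and 202, 318 and 184 in radiated libraries 1 to 3. This is 12.9, 13.3 and 12 CPM against 5.34, 5.95 and 4.12 CPM, with no overlap. The fitted log2 difference was -1.31 (SE 0.14, edgeR adjusted p 0.000729), and it was called in 14 of 14 alternative fits. An exon of Serpinb2 overlaps the neighbouring Serpinb10 on the same strand, and 10.4% of its stretches of 50 bases occur there. Serpinb10, left out of the family because the table gives it as a polymorphic pseudogene, was at 31.0, 33.6 and 24.4 CPM against 15.9, 17 and 13.3 CPM (log2 fold change -0.94, SE 0.13, edgeR adjusted p 0.00277).

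Serpinb1a, the most abundant member (ENSMUSG00000044734, chromosome 13, 32842092 to 32851185), fell by less. It was at 114, 137 and 109 CPM in non-radiated and 100, 87.4 and 86.1 CPM in radiated libraries 1 to 3, without overlap (edgeR adjusted p 0.0327, log2 fold change -0.40 with SE 0.09). Its call did not hold with library totals as the scaling (log2 fold change -0.18, edgeR adjusted p 0.745, where the median of all genes was 0.19) and without non-radiated replicate 1 or 2 (0.0631 and 0.0716) or radiated replicate 2 or 3 (0.0843 and 0.0825). Neutrophil lineage markers had negative fold changes beside it, with 3 of 15 called lower (7 with the replicate number as a block), a median log2 fold change of -0.35 and a summed level of 16491 to 20636 CPM in non-radiated and 12945 to 15262 CPM in radiated libraries. Their part in the result was not tested.

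Serpinb9, which protects cytotoxic cells from their own granzyme B, was at 13, 13 and 13.3 CPM in non-radiated and 13.2, 12.8 and 11.2 CPM in radiated libraries 1 to 3 (log2 fold change -0.08, SE 0.09, edgeR adjusted p 0.700). Serpinb6b had a fitted log2 difference of -0.04 (SE 0.13, edgeR adjusted p 0.905). With library totals as the scaling, where the median of all genes was 0.19, they were at 0.11 and 0.18. Serpinb6a, which inhibits cathepsin G, was at 63.9, 57.3 and 53.4 CPM in non-radiated and 73.0, 69.7 and 63.7 CPM in radiated libraries 1 to 3, so the groups just overlapped (log2 fold change 0.24, SE 0.08, edgeR adjusted p 0.104). Serpinb8, chosen after its values were seen because its groups did not overlap, was at 3.84, 3.63 and 3.45 CPM against 5.26, 4.55 and 4.80 CPM (log2 fold change 0.42, SE 0.13, edgeR adjusted p 0.0816). With the replicate number as a block Serpinb6a was called (edgeR adjusted p 0.0430), where 8.9% of all genes were called. Exons of Serpinb6a overlap Nqo2, Ripk1 and 1110046J04Rik on the opposite strand, and the use of strand in the counting is not stated.

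Serpine2, Serping1, Serpinc1, Serpini1, Serpinf2 and Serpind1, inhibitors of clotting, fibrinolysis, complement and neural proteases, were not called. Serpine2 was at 255, 227 and 264 CPM in non-radiated and 271, 249 and 252 CPM in radiated libraries 1 to 3 (log2 fold change 0.05, SE 0.07, edgeR adjusted p 0.759), with the smallest SE of the family, and was at -0.03 without non-radiated replicate 2. Serping1 was at 45.3, 42 and 38.0 CPM against 53.7, 54.1 and 35.6 CPM, with radiated library 3 below all others (log2 fold change 0.20, SE 0.15, edgeR adjusted p 0.506). Without radiated replicate 3 Serping1 was called (log2 fold change 0.37, edgeR adjusted p 0.0317).

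Antithrombin (Serpinc1) had a log2 fold change of 0.01 (SE 0.22) and neuroserpin (Serpini1) of -0.21 (SE 0.15), with edgeR adjusted p of 0.989 and 0.480. Serpinc1 was negative in 4 alternatives, by up to -0.25 without radiated replicate 3, and its exons overlap Zbtb37 on the opposite strand. Alpha-2-antiplasmin (Serpinf2) and heparin cofactor II (Serpind1) were sparse, with 27 to 39 and 4 to 37 counts in a library. Their log2 fold changes were -0.33 (SE 0.25, edgeR adjusted p 0.505) and 0.53 (SE 0.44, edgeR adjusted p 0.546), and neither passed the test.

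Serpinh1 and Serpinf1, which inhibit no protease, were not called. Serpinh1 was at 89.9, 69.7 and 105 CPM in non-radiated and 104, 72.2 and 80.2 CPM in radiated libraries 1 to 3 (log2 fold change -0.05, SE 0.16, edgeR adjusted p 0.905), and it was at 0.09 without non-radiated replicate 3 and at 0.06 without radiated replicate 2. Serpinf1 was at 81.2, 51.1 and 67.9 CPM against 64.3, 46.9 and 46.5 CPM (log2 fold change -0.35, SE 0.17, edgeR adjusted p 0.277). Library 2 was the lowest of the non-radiated libraries for both genes. Within numbers Serpinf1 was lower in each radiated library, by log2 ratios of -0.34, -0.13 and -0.55, and with the replicate number as a block it was called (edgeR adjusted p 0.0423). Of 12 osteoblast markers 4 were called lower (8 with the replicate number as a block), and their summed level was 9007 to 13616 CPM in non-radiated and 6801 to 8800 CPM in radiated libraries; their part in the result was not tested.

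**Figure D4:**
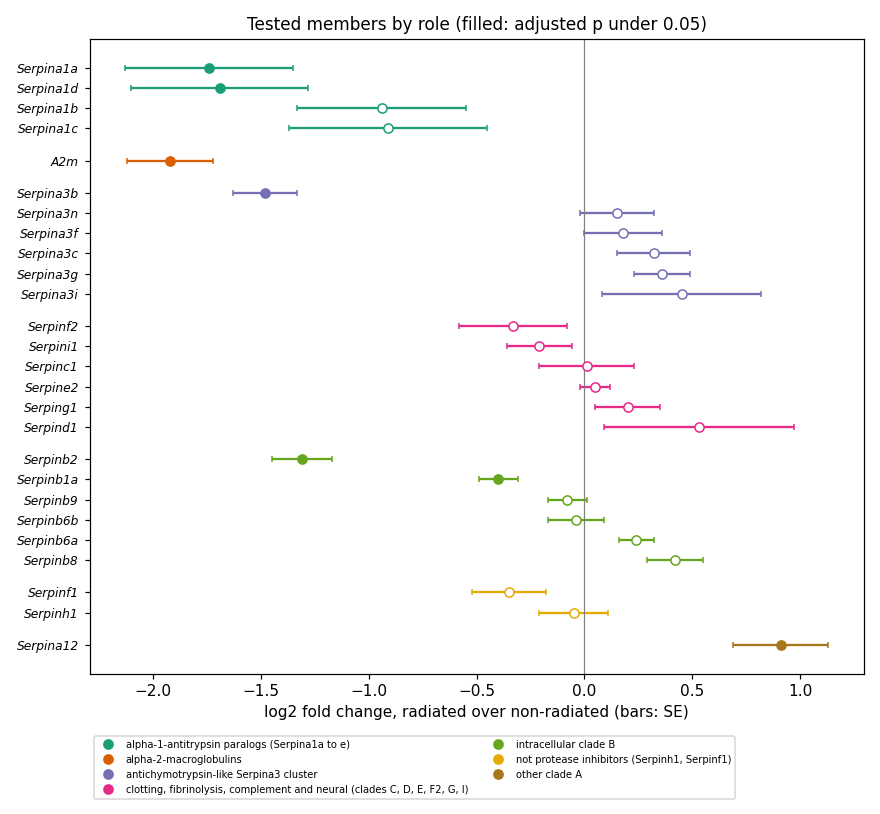
Log2 fold change (radiated over non-radiated) with its SE for the tested members described here, coloured by role; filled points have an edgeR adjusted p under 0.05. A2m, Serpina1a, Serpina1d, Serpina3b and Serpinb2 lie between -1.92 and -1.31, Serpina12 at 0.91, and the open points between -0.94 and 0.53.

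The proteases that these inhibitors face were taken from lists of related genes. Of 12 tested granule genes of neutrophils, mast cells and lymphocytes, 2 rose and 3 fell. Most are serine proteases, but the list also holds the carboxypeptidase Cpa3 and perforin (Prf1), which are not. Cpa3 was among the genes that fell (log2 fold change -0.58, edgeR adjusted p 0.0307). Ctsg, the neutrophil cathepsin G, fell from 98.4 ± 4.73 to 72.4 ± 5.12 CPM (log2 fold change -0.44, SE 0.07, edgeR adjusted p 0.00380), and the basophil protease Mcpt8 fell by 0.56 on the log2 scale (edgeR adjusted p 0.0216). Elane, neutrophil elastase, and Prtn3, proteinase 3, had log2 fold changes of -0.43 and -0.34 with edgeR adjusted p of 0.0683 and 0.0614, and Elane was called with the replicate number as a block (0.0495). Gzma rose by 0.69 and the mast cell tryptase Tpsb2 by 2.48 (edgeR adjusted p 0.0275 and 0.0254), the latter from 2, 3 and 1 counts to 13, 16 and 17. Gzmb, the granzyme that Serpinb9 and Serpina3n inhibit, had a fitted log2 difference of 0.57 (SE 0.29, edgeR adjusted p 0.312).

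Of 21 tested genes of the clotting and plasminogen system 8 fell and 1 rose. The gene that rose was Plau, or urokinase, a target of Serpinb2, from 24.7 ± 0.921 to 34.2 ± 2.85 CPM (log2 fold change 0.47, SE 0.08, edgeR adjusted p 0.00730). Plat, tissue plasminogen activator, was at 0.967 ± 0.41 and 2.12 ± 0.851 CPM (log2 fold change 1.13, SE 0.37, edgeR adjusted p 0.111), and was called with the replicate number as a block (0.0133). Vwf, F2rl2, F5 and Tfpi fell by 1.35, 1.58, 0.90 and 0.80 on the log2 scale, with edgeR adjusted p from 1.43e-05 to 0.00042; these are von Willebrand factor, the thrombin co-receptor PAR3, clotting factor V and tissue factor pathway inhibitor. The thrombin receptor F2r fell by 0.39 (edgeR adjusted p 0.0447, and 0.0539 with the replicate number as a block).

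Of 15 tested cathepsins and cystatins 3 were called higher by edgeR and 0 lower, of 10 with an unadjusted p under 0.05. With the replicate number as a block Ctsl, at -0.29 on the log2 scale without the block, was called lower (edgeR adjusted p 0.0249). The genes called higher were Ctsd, Ctss and Ctsc, lysosomal proteases that rose by 0.41, 0.40 and 0.30 on the log2 scale (edgeR adjusted p 0.0134, 0.0176 and 0.0363). With library totals as the scaling, and without radiated replicate 1, none of the list was called. Of 7 tested genes on the list of inhibitors outside the serpin fold, Itih5 and Itih2 rose by 0.43 and 1.19 (edgeR adjusted p 0.00784 and 0.0280). Both encode heavy chains of inter-alpha-trypsin inhibitor, which are not its inhibitory chain. That chain comes from Ambp, which had at most 2 counts in a library and was not tested. Wfdc21 fell by 0.39 (edgeR adjusted p 0.0201).

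Megakaryocyte markers fell in the same libraries as A2m, Serpina3b and Serpinb2. All 15 of the 15 markers tested were called lower, their median log2 fold change was -1.41, and their summed level was 2362 to 2406 CPM in non-radiated and 955 to 1059 CPM in radiated libraries. Within the radiated group library 3 was lowest and library 2 highest for the marker sum, for Serpina3b and for Serpinb2, while for A2m library 3 was lowest and libraries 1 and 2 were at 1.43 and 1.44 CPM. Of 10 tested mast cell and basophil markers 8 were called lower and 1 higher, with summed levels of 288 to 312 CPM and 206 to 227 CPM. The marker called higher was the mast cell tryptase Tpsb2. Cma1, with at most 22 counts in a library, had a log2 fold change of 1.29 and was not called (edgeR adjusted p 0.129). The list thus did not move in 1 direction. The sum of this list was 216, 227 and 206 CPM in radiated libraries 1 to 3, also lowest in library 3 and highest in library 2. This order was not particular to these lists. The muscle sum had it too, at 804, 2656 and 214 CPM. Radiated library 3 was also lowest for the neutrophil, endothelium, adipocyte and T and NK cell marker sums, while library 2 was lowest for the osteoblast sum. The part of megakaryocytes, mast cells and basophils in the falls of A2m, Serpina3b and Serpinb2 was not tested.

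**Figure D5:**
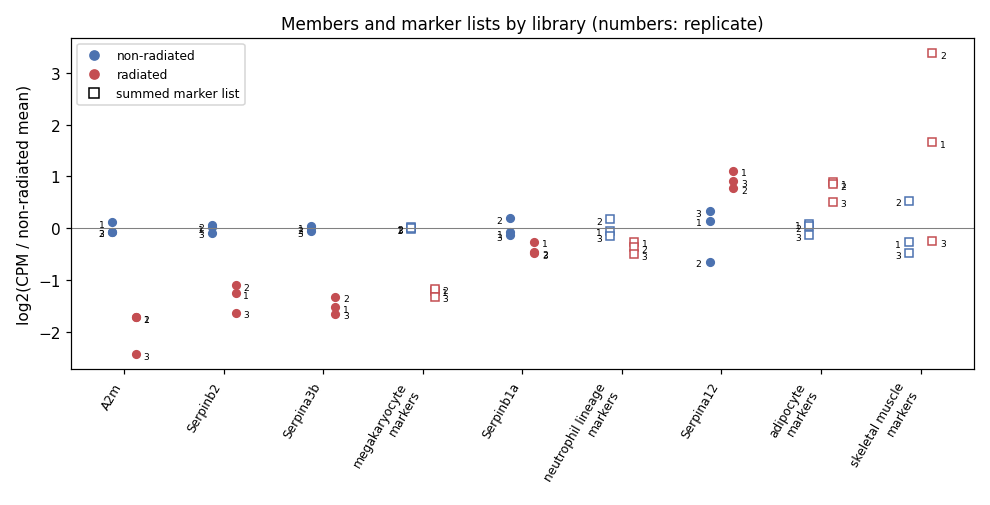
Log2 of the CPM in each library over the non-radiated mean, for 5 members (filled circles) and for the summed CPM of 4 marker lists (open squares); points are libraries numbered by replicate. A2m, Serpinb2, Serpina3b and the megakaryocyte sum lie low in all 3 radiated libraries, Serpina12 and the adipocyte sum lie high, and the muscle sum is high in radiated libraries 1 and 2 only.

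Of the 35 members under the filter, 19 had at least 1 count. Fitted with no filter, none of these 19 was called by edgeR, and 1 had an unadjusted p under 0.05. That gene was Serpinb1c, a paralog of Serpinb1a, which had counts of 5, 4 and 2 in non-radiated and of 12, 20 and 9 in radiated libraries 1 to 3 (log2 fold change 1.44, SE 0.58, edgeR adjusted p 0.175 with no filter). No other member under the filter had more than 9 counts in a library.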

How the data were processed

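RNA-seq of 3 radiated and 3 non-radiated femur pieces was analysed. The authors deposited whole-number counts and RPKM values per gene and library. STAR 2.5.2b, featureCounts and the build mm10 (GRCm38) appear in the submitters' processing notes, with no role or order; annotation, filters, strand and the treatment of reads with several matches are not given in the sources used here. The deposited RPKM values were not used.

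The test on the counts was that of edgeR 4.0.16, run in R 4.3.3 (filterByExpr with minimum count 10 and minimum total 15, TMM, glmQLFit and glmQLFTest, group as the only term), with Benjamini-Hochberg adjustment of p over 18757 genes. Each SE is the log2 fold change over the root of its F statistic. No list was tested as a set. Of the tested members 1 is counted in the totals and not otherwise reported here. P-values measure the spread between 3 libraries a group, which the labels do not tie to single mice. Replicate pairs had a chi-square of 17.8 to 631 for each degree of freedom, beyond sampling noise. Deviations from the group means correlated at 0.166, 0.277 and 0.187 for equal numbers and -0.17 to -0.00824 for unequal ones, so the numbers were taken to pair the libraries, and the block was an alternative.

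The members, gene lists and tests were chosen with earlier results of these data known. Named were all called members, members with at least 20 CPM per kb in either group, a set of chosen genes, of which Serpinb10 proved to be no member, and in each related list up to 4 called genes with the smallest p plus 10 chosen genes; Serpinb1c, Serpinb8, Serpinb3a, Serpinb11, Serpinb13, Ctsl, Trf and the marker genes printed were named after their values were seen. Of 213 list entries 212 were in the table. Alternatives were DESeq2 1.42.0 (size factors, Wald test), library totals with or without AY036118 and Gm26917, other filters, limma-voom (limma 3.58.1) and each library left out. Shared stretches of 50 bases and exon overlaps were taken from GENCODE M21, whose start and end matched the table for 55 of 62 members.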

Additional observations from a re-analysis of the deposited data

How the results depend on the processing

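A2m, Serpina3b and Serpinb2 were called in each of the 14 alternatives. All alternatives reuse the same libraries, and the family was selected with its fold changes known, so these calls are no independent support. The number of called members was 7 to 10 in the alternatives with all 6 libraries and 4 to 9 when each library was left out, with 1 to 3 higher and 3 to 6 lower; it was 4 without non-radiated replicate 1 or 2 and 5 without radiated replicate 1. The genes called over the whole table went from 1463 to between 764 and 1376 when each library was left out, and to 1938 by DESeq2's Wald test and 2073 with no filter. The median log2 fold change of the tested members was 0.18 with library totals alone, where that of all genes was 0.19, and -0.06 to 0.09 when each library was left out. The related genes called went from 21 to 9 with library totals alone and to 10 to 19 when each library was left out, lowest without radiated replicate 1 and 13 without non-radiated replicate 2; they rose to 29 by DESeq2's Wald test and 31 with no filter. The cause was not tested; leaving out a library also leaves fewer samples.

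With the replicate block 1670 genes, 10 members and 24 related genes were called; Serpinb6a and Serpinf1 were gained, and no called member was lost. Of 334 values of 24 named members under alternatives, 310 kept direction and side of the threshold or were uncalled throughout, 17 lost a call, 7 gained one and 0 called values changed sign. The 7 named members that changed sign under some alternative were uncalled. Summing Serpina1a to Serpina1e into 1 row, chosen after seeing the data, gave -1.58 (edgeR adjusted p 0.0386). Depth limits the 35 members under the filter, Pzp among them.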
